A study of Mus musculus with 6 samples.

Results

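The 5 genes described here, Gad1, Gad2, Slc32a1, Slc6a11 and Abat, make, package, take up and break down GABA, the main inhibitory transmitter of the cortex. They were chosen by name, not by a rule on their values, from 32285 genes, and all 5 were found by symbol. Earlier results of these data were known when they were chosen. The libraries are single-nucleus RNA-Seq of the prelimbic area (PL) of the medial prefrontal cortex of C57BL/6 male mice. RunGH males had mothers with a running wheel and were group-housed after weaning, and SedGH males had mothers without a running wheel and were group-housed. RunSI and SedSI males had the same maternal environments and were socially isolated after weaning. *Dataset 1* (cohort 1) holds 1 RunGH and 1 SedGH library of mice that had been through the tube test and were picked by their rank in it. As the paper words it, the Run males ranked top and the Sed males bottom in their groups. Rank and maternal environment thus cannot be told apart in this dataset. *Dataset 2* (cohort 2) holds 1 library of each of the 4 groups from mice without earlier behavioral tests. Each library was pooled from 3 males, and the labels give an age of P21 while the study describes adults.

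GABA is made from glutamate by glutamic acid decarboxylase, of which Gad1 encodes the GAD67 form and Gad2 the GAD65 form. Slc32a1 encodes the vesicular transporter that loads GABA into synaptic vesicles. After release, GABA is cleared by plasma membrane transporters, among them GAT-3, the product of Slc6a11, which is known from astrocytes. Abat encodes the mitochondrial GABA transaminase, the first enzyme of GABA breakdown.

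On the GRCm38 build (GENCODE M21), Gad1 is at chr2:70553072-70602014, Gad2 at chr2:22622205-22693874 and Slc32a1 at chr2:158610767-158615748. Slc6a11 is at chr6:114131241-114249952 and Abat at chr16:8513429-8621568, and all 5 genes are on the plus strand. Gad1os, an antisense gene, overlaps Gad1 by 10286 bases, and it is not stated whether the counting used strand.

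The promoters of Gad1, Gad2 and Slc32a1 are shown because these genes had their highest levels in the same class of nuclei, and that of Slc6a11 because its level was highest in another class. They hold 250 bases before and 50 after the RefSeq start (GRCm38.p6, plus strand), at chr2:70561879-70562178 for Gad1, chr2:22622077-22622376 for Gad2, chr2:158610508-158610807 for Slc32a1 and chr6:114130991-114131290 for Slc6a11. Capitals mark matches on either strand to CANNTG, the E-box core of basic helix-loop-helix factors, to TATAAA, the TATA box, and to TAATTA, a core that homeodomain factors such as the DLX proteins bind.
Gad1: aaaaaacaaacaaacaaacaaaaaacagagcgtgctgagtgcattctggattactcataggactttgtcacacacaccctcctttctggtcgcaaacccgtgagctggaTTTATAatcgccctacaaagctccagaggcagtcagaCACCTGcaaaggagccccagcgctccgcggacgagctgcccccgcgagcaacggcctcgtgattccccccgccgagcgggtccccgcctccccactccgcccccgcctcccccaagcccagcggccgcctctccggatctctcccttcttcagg
Gad2: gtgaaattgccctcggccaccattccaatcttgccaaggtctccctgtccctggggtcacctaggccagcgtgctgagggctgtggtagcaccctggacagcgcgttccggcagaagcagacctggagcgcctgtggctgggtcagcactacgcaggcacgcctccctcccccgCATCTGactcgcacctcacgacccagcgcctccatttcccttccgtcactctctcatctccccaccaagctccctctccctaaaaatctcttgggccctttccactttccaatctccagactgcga
Slc32a1: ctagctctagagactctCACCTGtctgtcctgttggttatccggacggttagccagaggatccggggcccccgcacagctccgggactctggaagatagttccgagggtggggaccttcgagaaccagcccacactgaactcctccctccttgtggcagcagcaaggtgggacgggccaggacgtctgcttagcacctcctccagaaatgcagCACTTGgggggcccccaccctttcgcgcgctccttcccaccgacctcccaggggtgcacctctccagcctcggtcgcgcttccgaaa
Slc6a11: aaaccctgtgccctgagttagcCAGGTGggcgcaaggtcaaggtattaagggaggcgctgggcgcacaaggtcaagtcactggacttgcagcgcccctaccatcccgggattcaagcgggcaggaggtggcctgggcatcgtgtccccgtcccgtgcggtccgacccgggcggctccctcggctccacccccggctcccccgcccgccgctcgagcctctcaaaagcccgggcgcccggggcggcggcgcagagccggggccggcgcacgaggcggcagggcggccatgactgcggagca
CANNTG matched once or more in each of the 4 promoters and in 72.3% of 32851 promoters of the same length. TATAAA matched only in Gad1 among the 4, on the minus strand, and in 13.6% of all promoters. Whether this match works as a TATA box was not tested. TAATTA matched in none of the 4 and in 5.29% of all. The Gad1 window, taken from the RefSeq start, lies inside the GENCODE spans of Gad1 and of Gad1os (chr2:70489940-70563357). CCGCCC, not marked, had 4 matches in Slc6a11, 1 in Gad1 and 0 in the other two, and 35.7% of all promoters held it. GC content was 60% in Gad1, 61.3% in Gad2, 63.3% in Slc32a1 and 72.3% in Slc6a11, against a median of 52.7% over all promoters.

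The 42599 nuclei fell into 33659 pyramidal, 4051 inhibitory, 1356 astrocyte-like, 329 oligodendrocyte precursor-like (OPC), 204 oligodendrocyte-like, 128 microglia-like and 85 vascular leptomeningeal-like nuclei, with 1649 in mixed and 1138 in unnamed clusters. Clusters were rebuilt here and named from marker genes without the 5 genes, so names can differ from those of the study. Inhibitory nuclei held 1293 PV-like, 1289 SST-like, 490 NPY-like and 433 VIP-like nuclei. Median depth was 1637 to 6250 UMIs (unique RNA molecules) per nucleus, and was lowest in SedGH of *dataset 2*. Background droplets, which hold free RNA and no called nucleus, had a median of 1070 and 1202 UMIs in *dataset 1* and 82 to 302 in *dataset 2*. From the markers of other classes, free RNA was estimated at 7.15 to 25.9% of pyramidal and 9.23 to 31.4% of inhibitory UMIs. Levels are given as CPM, a gene's UMIs in a class of a library scaled to a total of 1000000 UMIs. Differences of levels between classes are described without a test, since the classes are clusters of the same nuclei.

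Gad1 was highest in NPY-like nuclei, with a lowest, median and highest level over the 6 libraries of 452, 546 and 592 CPM. PV-like nuclei followed at 234, 270 and 301 CPM, and VIP-like nuclei held 125, 199 and 251 CPM. SST-like nuclei held 87.5, 94.0 and 141 CPM. The NPY-like range lay above all others, and the PV-like range lay above the SST-like range and overlapped the VIP-like range. Within a library, NPY-like nuclei exceeded PV-like nuclei by 0.99 ± 0.15 on the log2 scale (SD, n = 6) and PV-like nuclei exceeded SST-like nuclei by 1.44 ± 0.18. Inhibitory nuclei as a whole exceeded pyramidal nuclei by 5.25 ± 0.24. The pyramidal level is read as background below, so this difference depends on free RNA and is no exact ratio.

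The Gad1 level in pyramidal nuclei was 4.80, 6.37 and 7.21 CPM (lowest, median and highest). It was at or below the level expected from free RNA, 6.15 to 10.4 CPM, in 6 of 6 libraries and is read as background. Astrocyte-like nuclei held 9.54 to 22.2 CPM, with no library's interval above its free-RNA level.

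OPC-like nuclei held 60.1, 72.3 and 104 CPM of Gad1 in the 5 libraries with at least 20 such nuclei. This range overlapped the SST-like range and lay above every pyramidal value. The interval lay above the free-RNA level in 3 of these libraries, and the free-RNA level itself was high, at 17.6 to 64.6 CPM. Gad2 in the same nuclei was 0 to 30.05 CPM and above the free-RNA level in 0 libraries.

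Gad2 was also highest in NPY-like nuclei, at 592, 695 and 900 CPM. SST-like nuclei held 165, 210 and 264 CPM, VIP-like nuclei 170, 204 and 260 CPM, and PV-like nuclei 149, 165 and 210 CPM. The last 3 ranges overlapped, although PV-like nuclei were below SST-like nuclei in 6 of 6 libraries, by 0.33 ± 0.28 on the log2 scale (SD, n = 6). NPY-like nuclei exceeded PV-like nuclei by 2.05 ± 0.30. In pyramidal nuclei Gad2 was at 3.11, 4.98 and 6.93 CPM, above the free-RNA level in 1 of 6 libraries, where the counting interval included that level.

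**Figure D1:**
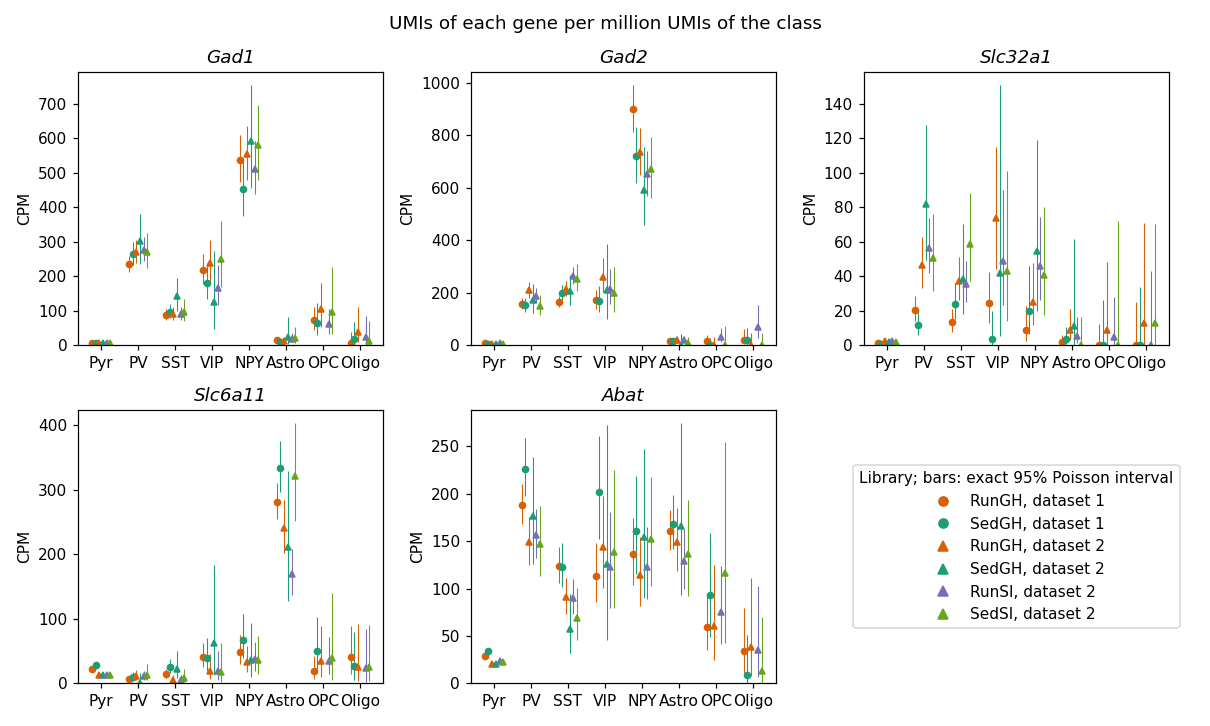
Level of each of the 5 genes (CPM, y axis) by class of nuclei (x axis) in each library with at least 20 nuclei of the class; points are libraries and bars exact 95% Poisson intervals. Gad1 and Gad2 are highest in NPY-like nuclei, where Gad1 is at 452 to 592 CPM, and Slc6a11 is highest in astrocyte-like nuclei, at 170 to 334 CPM.

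The balance of the GAD genes differed between inhibitory subtypes. Gad1 made up 56.2 to 64.5% of the UMIs of both genes in PV-like nuclei and 25.5 to 40.7% in SST-like nuclei, and these ranges did not overlap. The share was 37.4 to 50% in NPY-like and 37.5 to 56.0% in VIP-like nuclei. These shares depend on how well each gene is captured and are read across classes only. In background droplets the share was 43.0 to 60.4% and in pyramidal nuclei 48.0 to 64.3%, and the latter overlaps the former. OPC-like nuclei held 46 Gad1 and 11 Gad2 UMIs over the 3 libraries with at least 10 of them, and the share there was 66.7 to 100%. The lowest of these, in RunSI, had an exact 95% binomial interval of 41.0 to 86.7%, which included the 55.4% in that library's background droplets, and its Gad1 level of 60.1 CPM was below the free-RNA level of 64.6 CPM.

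**Figure D2:**
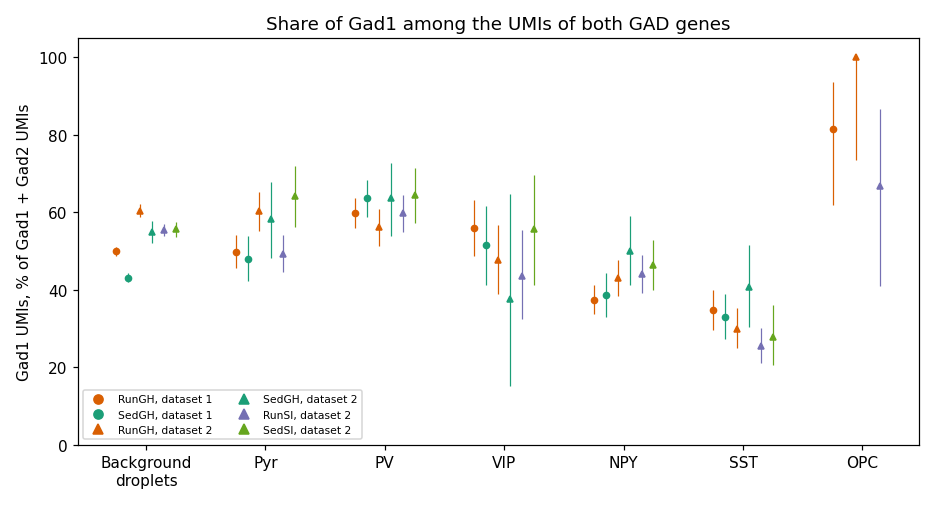
Share of Gad1 among Gad1 and Gad2 UMIs (percent, y axis) in background droplets and in classes of nuclei (x axis); points are libraries with at least 10 such UMIs and bars exact 95% binomial intervals. PV-like nuclei lie at 56.2 to 64.5% in all 6 libraries and SST-like nuclei at 25.5 to 40.7%.

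Levels were also compared between groups within the PV-like nuclei. Among groups matched between datasets by their leading genes, the 306 PV-like nuclei led by Agbl1, Gpr149 and Eya1 held 288 to 405 CPM of Gad1. The 720 PV-like nuclei led by Il1rapl2, Cemip and Eya4 held 200 to 282 CPM, so that the ranges did not overlap. The nearest values, 288 and 282 CPM, were both from RunSI. Counting intervals of the pooled libraries overlapped, at 272 to 375 and 211 to 278 CPM in *dataset 1* and 274 to 359 and 230 to 279 CPM in *dataset 2*. The gap is thus read with caution. Gad2 ran the other way except in SedSI (175 against 149 CPM), at 85.6 to 182 and 149 to 225 CPM, with overlap. Among NPY-like nuclei, the 320 led by Sv2c, Pde11a and Crispld1 held 720 to 900 CPM of Gad2.

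Detection of both GAD genes in the same nucleus was compared after each nucleus was thinned to 1000 UMIs, which left 33034 pyramidal and 462 NPY-like nuclei. Over all libraries together, both genes were seen in 20.8% of NPY-like, 5.84% of VIP-like, 4.16% of PV-like and 1.68% of SST-like nuclei. By library the shares were 13.7 to 28.6%, 2.78 to 9.52%, 1.27 to 6.64% and 0.758 to 3.29%, in the same order. The last 3 ranges overlapped. They were seen together in 1 pyramidal nucleus. Of 315 OPC-like nuclei, 28 had Gad1 alone, 2 had Gad2 alone and 1 had both. Before thinning, Gad1 was seen in 51.4 to 89.3% of NPY-like and 1.16 to 4.40% of pyramidal nuclei. The median NPY-like nucleus held 1172 to 5270 UMIs by library, and the median pyramidal nucleus 1693 to 6816.

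Slc32a1 was found in inhibitory nuclei at 15.8, 43.4 and 54.6 CPM. The 2 libraries of *dataset 1* held 15.8 and 16.9 CPM and the 4 of *dataset 2* held 42.9 to 54.6 CPM, without overlap. The ranges of PV-, SST-, VIP- and NPY-like nuclei all overlapped. Pyramidal nuclei held 0.52 to 2.60 CPM, above the free-RNA level in 0 of 6 libraries. Inhibitory nuclei exceeded pyramidal nuclei by 4.49 ± 0.50 on the log2 scale (SD, n = 6). With the pyramidal level not above free RNA, this difference is no exact ratio.

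Slc6a11 was highest in astrocyte-like nuclei, at 170, 261 and 334 CPM, and exceeded the pyramidal level by 3.95 ± 0.40 on the log2 scale (SD, n = 6). Among neurons, NPY-like nuclei held 33.4, 36.8 and 66.9 CPM and exceeded pyramidal nuclei by 1.35 ± 0.12. VIP-like nuclei held 17.3 to 62.7 CPM and PV-like nuclei 0 to 13.7 CPM, and these ranges did not overlap. The VIP-like levels rest on few UMIs, and the filter on low counts left this gene out of the maternal test there. For the lowest VIP-like level (SedSI) against the highest (SedGH of *dataset 2*), the counting interval of the log2 ratio was -5.44 to 1.27. The gap between the VIP-like and PV-like ranges does not allow for this counting error and is read with caution. Free RNA was expected to give 1.67 to 12.4 CPM in VIP-like nuclei. Pyramidal nuclei held 12.4, 13.7 and 27.8 CPM, with the counting interval above the free-RNA level in 6 of 6 libraries.

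Abat was more evenly spread. Inhibitory nuclei held 122, 129 and 189 CPM and astrocyte-like nuclei 129, 155 and 168 CPM, and these ranges overlapped. PV-like nuclei held 147, 166 and 226 CPM and SST-like nuclei 57.2, 90.8 and 124 CPM, without overlap, a difference of 0.95 ± 0.37 on the log2 scale (SD, n = 6). Pyramidal nuclei held 20.2, 23.0 and 33.7 CPM, with the interval above the free-RNA level in 6 of 6 libraries, and OPC-like nuclei held 59.1 to 117 CPM.

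Pyramidal nuclei differed among themselves in Abat and Slc6a11, as seen in 6 groups that were matched between the datasets. Abat was at 34.2 to 72.7 CPM in the group led by Gm2164, L3mbtl4 and Npsr1 and at 47.4 to 71.4 CPM in that led by Tshz2, Vwc2l and Htr2c. It was at 6.99 to 18.4 CPM in the group led by Rmst and 6.40 to 19.3 CPM in that led by Galnt14 and Rxfp1. The former pair lay above the latter pair in every library.
Slc6a11 had another order. It was at 35.8 to 50.7 CPM in the Tshz2 group, 18.7 to 45.0 CPM in the group led by Hs3st4 and Syt6, and 18.3 to 39.9 CPM in the Rxfp1 group. The Npsr1 group, where Abat was high, held 2.28 to 14.6 CPM of Slc6a11. Gad1 lay between 2.90 and 13.3 CPM in all 6 groups.

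**Figure D3:**
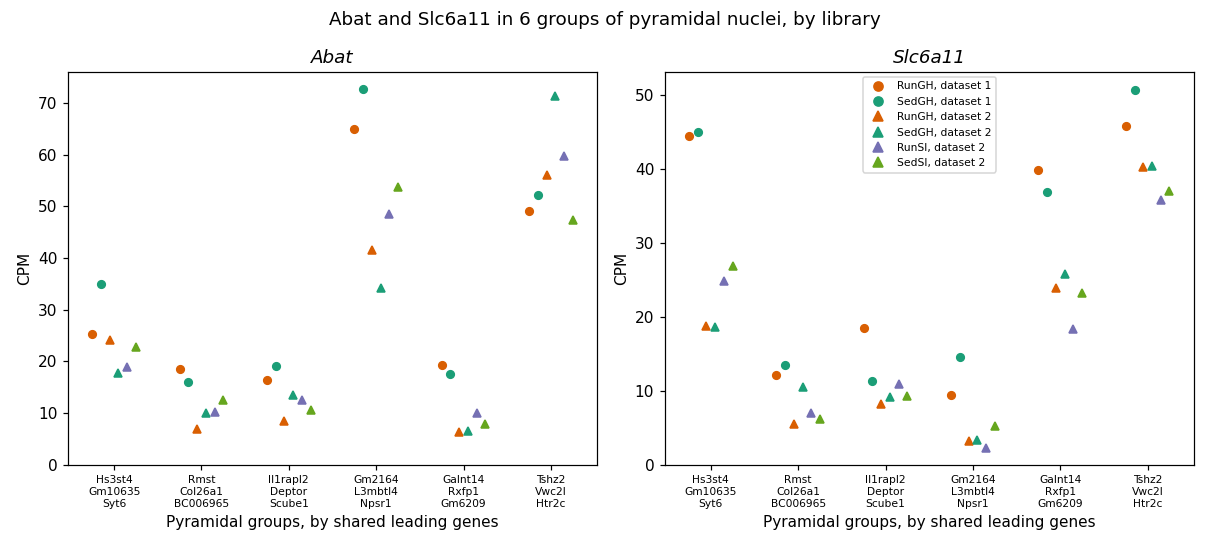
Abat (left) and Slc6a11 (right) levels (CPM, y axis) in 6 groups of pyramidal nuclei named by leading genes (x axis); each point is a library. Abat is at 34.2 to 72.7 CPM in the Npsr1 group, where Slc6a11 is at 2.28 to 14.6 CPM, and both are high in the Tshz2 group.

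Other genes of the pathway give the setting. The GABA transporter genes Slc6a12 and Slc6a13 were at or near 0 in inhibitory, NPY-like, astrocyte-like and pyramidal nuclei. Astrocyte-like nuclei held 332 to 972 CPM of Glul, the glutamine synthetase, and 68.0 to 111 CPM of Maob, a monoamine oxidase. Slc17a7, the vesicular glutamate transporter of cortical pyramidal neurons, was at 139 to 276 CPM in pyramidal nuclei. Gad1os was at 8.99 to 19.97 CPM in inhibitory and 0.06 to 0.34 CPM in pyramidal nuclei.

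The genes most like each member were ranked by Pearson's r of log2(CPM + 1) over 48 points, each a class in a library, which share libraries and depth. Btbd11 (r = 0.88) and Alk (0.87) were most like Gad1, and Dlx1as (0.89) and Gm14204 (0.89) most like Gad2. Btbd11 was one of the markers that named the PV-like nuclei, so its r is not independent of the classes. A530058N18Rik (0.80) and Ankrd55 (0.80) were most like Slc32a1, Prex2 (0.85) and Gnao1 (0.81) most like Slc6a11, and Rbms3 (0.89) and Itsn1 (0.86) most like Abat. With Spearman's rho the order changed: Alk (0.88) led for Gad1, Pdcd7 (0.83) for Slc32a1, Fat1 (0.80) for Slc6a11 and Itsn1 (0.82) for Abat, Gnao1, Ankrd55 and Rbms3 were no longer among the 5 genes most like Slc6a11, Slc32a1 and Abat, respectively, and Dlx1as (0.88) still led for Gad2. Among the members, Gad1 and Slc32a1 had r = 0.73, Gad1 and Gad2 0.68, and Gad1 and Slc6a11 -0.13.

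The maternal environment was compared between Run and Sed libraries. No change in the 5 genes passed the test in any class, nor over all nuclei. With edgeR's quasi-likelihood test (UMI sums per library and class, dataset and housing as terms, Benjamini-Hochberg adjustment at 0.05), 0 of 35 tests of a member in a class were called, 3 had an unadjusted p under 0.05, and DESeq2 called 0. Over all genes, the same test called 0% in all nuclei and in pyramidal, 0.078% in inhibitory, 0.103% in PV-like, 0.0406% in SST-like, 0.0215% in VIP-like, 0.0841% in NPY-like, 0.0702% in astrocyte-like, 0% in oligodendrocyte-like and 0.0228% in OPC-like nuclei. The filter on low counts left out Slc32a1 in astrocyte-like, Slc6a11 in VIP-like, and Gad2, Slc32a1 and Slc6a11 in OPC-like nuclei. OPC- and oligodendrocyte-like nuclei were tested without SedGH of *dataset 2*, which held fewer than 20 of each, and no member passed the filter in the latter.

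Slc6a11 in astrocyte-like nuclei was 282 CPM in RunGH and 334 in SedGH of *dataset 1*, 240 in RunGH and 211 in SedGH of *dataset 2*, and 170 in RunSI and 321 in SedSI. The Run library was lower in 2 of the 3 pairs, and the Run and Sed ranges overlapped. The fitted log2 change was -0.40 ± 0.18 (SE, edgeR adjusted p = 0.80). In SST-like nuclei it was -0.95 ± 0.45 for Slc6a11 and -0.58 ± 0.27 for Slc32a1 (edgeR adjusted p = 0.82 for both).
Gad2 over all nuclei was higher in Run in 3 of 3 pairs, at 29.0 against 23.4 CPM, 31.1 against 24.7 CPM and 33.6 against 26.1 CPM, with no overlap. The fitted log2 change was 0.28 ± 0.09 (SE, edgeR adjusted p = 0.59). Inhibitory nuclei, which hold most Gad2, were also a larger share of the nuclei in Run in 3 of 3 pairs, at 9.81% (exact 95% binomial interval 9.17 to 10.5) against 8.62% (7.86 to 9.42) in *dataset 1*, 10.2% (9.62 to 10.8) against 8.82% (8.11 to 9.58) in the group-housed pair of *dataset 2*, and 9.77% (9.15 to 10.4) against 8.90% (8.13 to 9.73) in the isolated pair. The part of this share in the Gad2 value was not tested. Within inhibitory nuclei the Gad2 change was 0.09 ± 0.11 (edgeR adjusted p = 0.94).

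Social isolation was compared with group housing in *dataset 2*. edgeR called 0 of 35 member tests, 0 had an unadjusted p under 0.05, and DESeq2 called 0. Over all genes edgeR called 0% in all nuclei and in pyramidal, inhibitory, PV-, SST-, VIP-, NPY- and OPC-like nuclei, 0.0117% in astrocyte-like and 0.118% in oligodendrocyte-like nuclei. In inhibitory nuclei the log2 change was -0.12 ± 0.14 for Gad1 and -0.03 ± 0.14 for Gad2 (SE).

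Whether the maternal effect differed by housing was tested with an interaction term. edgeR called 0 of 34 member tests, 1 had an unadjusted p under 0.05, DESeq2 called 0, and over all genes edgeR called 0% in all nuclei and in pyramidal, inhibitory, SST-, VIP-, NPY- and astrocyte-like nuclei and 0.0188% in PV-like nuclei. OPC- and oligodendrocyte-like nuclei were left out of the interaction tests. The lowest unadjusted p was that of Slc6a11 in astrocyte-like nuclei, whose difference was -0.84 ± 0.39 on the log2 scale (SE, edgeR adjusted p = 1). For the difference by dataset, edgeR and DESeq2 each called 0 of 34, with 0 at an unadjusted p under 0.05. Over all genes edgeR called 10.3% in all nuclei, 11.5% in pyramidal, 2.81% in inhibitory, 0.977% in PV-like, 0.767% in SST-like, 0.0173% in VIP-like, 0.0142% in NPY-like and 0.256% in astrocyte-like nuclei.

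**Figure D4:**
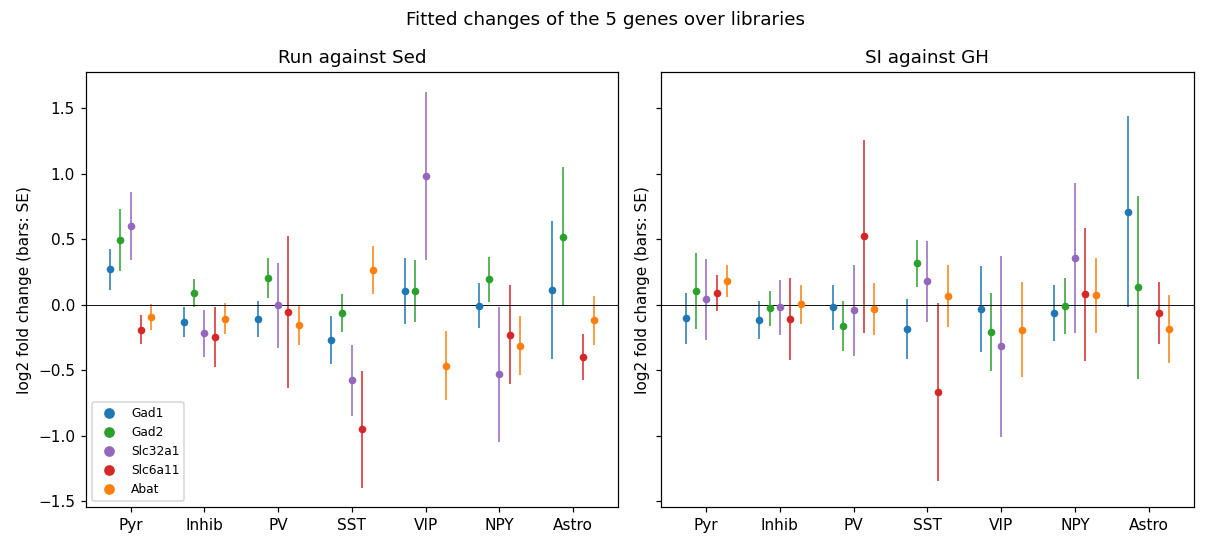
Fitted log2 fold changes of the 5 genes (y axis) by class (x axis), Run against Sed on the left and SI against GH on the right; bars are SE from edgeR over libraries. No change passed the adjusted threshold, and in inhibitory nuclei the housing change of Gad1 is -0.12 ± 0.14.

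Between the datasets, differences passed the test for Slc32a1, higher in *dataset 2*, and for Slc6a11 and Abat, lower in *dataset 2*, and none passed for Gad1 and Gad2. edgeR called 9 of 35 member tests, 4 higher and 5 lower in *dataset 2*, and DESeq2 called 5. Over all genes edgeR called 39.3% in all nuclei, 38.2% in pyramidal, 35.2% in inhibitory, 24% in PV-like, 25.3% in SST-like, 11.4% in VIP-like, 12.7% in NPY-like, 28.7% in astrocyte-like, 8.26% in oligodendrocyte-like and 4.79% in OPC-like nuclei, and the share of member tests called lay within the range of these shares, so the count is no result particular to the members. Cohort, prior tube test and preparation cannot be told apart.
Slc32a1 rose by a log2 change of 1.41 ± 0.22 in inhibitory (SE, edgeR adjusted p = 0.000185), 1.67 ± 0.37 in PV-like and 1.11 ± 0.34 in SST-like nuclei. In pyramidal nuclei, where every library was at or below the free-RNA level of 0.68 to 4.21 CPM, the change was 1.28 ± 0.32, and it was 0.34 after thinning to 1000 UMIs (edgeR adjusted p = 0.61). Slc32a1 in background droplets was 2.63 and 5.80 CPM in *dataset 1* and 36.7 to 42.2 CPM in *dataset 2*. After this profile was subtracted, the change was 1.16 in inhibitory and 1.51 in PV-like nuclei, both still called (edgeR adjusted p = 0.015 and 0.022), and 0.77 in SST-like nuclei, where the call was lost (edgeR adjusted p = 0.22). Slc32a1 in pyramidal nuclei could not be tested after subtraction, and the part of free RNA in its change was not tested. Slc6a11 fell by 1.10 ± 0.14 in pyramidal and by 0.88 ± 0.28 in inhibitory nuclei. Abat fell by 0.78 ± 0.12 in pyramidal, 0.56 ± 0.14 in inhibitory and 0.74 ± 0.22 in SST-like nuclei. The Tshz2 group of pyramidal nuclei did not share this direction, with 49.0 and 52.2 CPM of Abat in *dataset 1* and 56.0, 71.4, 59.7 and 47.4 CPM in *dataset 2*, and these ranges overlapped, while in the other 5 matched groups every library of *dataset 1* lay above those of *dataset 2*. Abat in VIP-like nuclei also overlapped between datasets, at 114 and 202 CPM in *dataset 1* and 122 to 144 CPM in *dataset 2*. So did Abat in the NPY-like nuclei led by Sv2c, at 136 and 161 CPM against 130 to 157 CPM. Background droplets held 24.7 and 27.0 CPM of Slc6a11 in *dataset 1* and 27.7 to 32.5 in *dataset 2*. They held 33.1 and 33.3 CPM of Abat in *dataset 1* and 39.1 to 46.9 in *dataset 2*. Free RNA was estimated at 20.3 and 25.9% of pyramidal UMIs in *dataset 1* and 7.15 to 11.5% in *dataset 2*, so that the level expected from it in pyramidal nuclei was higher in *dataset 1*, at 5.01 and 6.99 against 2.04 to 3.18 CPM of Slc6a11 and 6.76 and 8.58 against 3.35 to 4.78 CPM of Abat. After subtraction the changes in pyramidal nuclei were -1.23 for Slc6a11 and -0.86 for Abat, both still called (edgeR adjusted p = 0.022 and 0.029). Those of Abat in inhibitory and SST-like nuclei were also still called (-0.76 and -0.99, edgeR adjusted p = 0.014 and 0.021), and the call of Slc6a11 in inhibitory nuclei was lost (-0.93, edgeR adjusted p = 0.12). Leaving out each library in turn, the calls of Slc32a1 in inhibitory and PV-like nuclei and of Slc6a11 in pyramidal nuclei held. Without RunGH of *dataset 2*, the other 6 calls were lost, with edgeR adjusted p from 0.058 (Abat in pyramidal nuclei) to 0.56 (Slc32a1 in SST-like nuclei). Without RunGH of *dataset 1*, the calls of Slc6a11 in inhibitory and Slc32a1 in SST-like nuclei were lost, and without SedGH of *dataset 2* those of Abat in inhibitory and SST-like nuclei. Slc32a1 in pyramidal nuclei lost its call without each of the 4 libraries of *dataset 2* in turn. The 6 changes that lost their calls kept their direction under every alternative. The log2 changes of Abat were -1.02 to -0.62 in pyramidal, -0.76 to -0.43 in inhibitory and -1.08 to -0.64 in SST-like nuclei. Those of Slc6a11 in inhibitory nuclei were -1.01 to -0.66. Those of Slc32a1 were 0.64 to 1.54 in SST-like and 0.34 to 1.67 in pyramidal nuclei. A call was gained for Gad2 in pyramidal nuclei without RunGH of *dataset 1* (log2 change -0.71, edgeR adjusted p = 0.044, against -0.54 and 0.18 with it). Of the 25 other pathway genes, 6 of 21 tested were called in pyramidal nuclei, 4 higher and 2 lower.

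**Figure D5:**
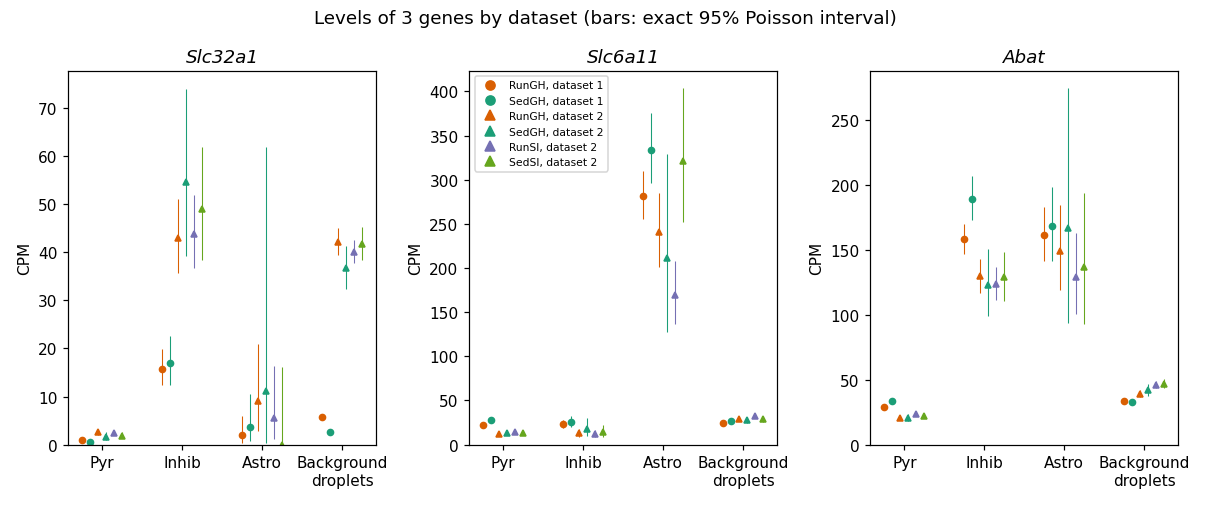
Levels of Slc32a1, Slc6a11 and Abat (CPM, y axis) in pyramidal, inhibitory and astrocyte-like nuclei and in background droplets (x axis) of each library; circles are *dataset 1*, triangles *dataset 2* and bars exact 95% Poisson intervals. Slc32a1 in inhibitory nuclei is at 15.8 and 16.9 CPM in *dataset 1* and 42.9 to 54.6 CPM in *dataset 2*.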

How the data were processed

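Nuclei were profiled in 6 libraries of PL tissue. The authors made the libraries with 10x Chromium 3′ V3 chemistry, counted UMIs with Cell Ranger 6.0.0 against mm10, introns included, and deposited raw counts of all barcodes.

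Nuclei were kept with 500 to 4000 genes, at most 1% mitochondrial UMIs and a minimum of UMIs per library (the 99th percentile of the largest barcodes divided by 10). Library totals ran from 19134955 to 188952936 UMIs. Each dataset had its own clustering in scanpy 1.11.5 (Pearson residuals, theta 100, 3000 genes, 35 components, 20 neighbours, Leiden resolution 0.6, leidenalg 0.10.2) without the 5 genes and 25 other pathway genes. Clusters were named from marker lists. Reclustering of non-neuronal nuclei, the naming rule and the report of the dataset term were settled after clusters or levels had been seen. The members and lists were chosen with earlier results of these data known. Named genes were the members, the pathway list and, for each member, the genes with the highest r (at least 200 UMIs).

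Counts were summed per library and class and tested with edgeR 4.0.16 in R 4.3.3 (TMM, filterByExpr, quasi-likelihood) over libraries with at least 20 nuclei of the class, with terms for dataset, maternal environment and housing and 2 residual degrees of freedom (interactions had 1). DESeq2 1.42.0 was the other tool. The test was tried on simulated data. The replicate number is the cohort in the labels, so dataset served as the block. Each library pools 3 mice, and each group of a dataset has 1 library, so there are no like pools to compare. The spread behind the p-values is the departure of the libraries from additive terms. It mixes differences between pools with any interaction of maternal environment with dataset or housing. Each interaction test likewise has the other interaction in its spread. The study's test over nuclei was not used, because nuclei are not replicates. Free RNA was estimated from background droplets of at least 30 UMIs. Intervals at 95% and the counts behind shares cover counting error only. No doublets were removed, and Scrublet marked 1.09 to 6.75% of nuclei per library. Between 0.208 and 0.820% of a library's nuclei shared a barcode with another library of its cohort.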

Additional observations from a re-analysis of the deposited data

Results flagged for a closer look

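In 6 clusters that were left unnamed and entered only the sums over all nuclei, Gad1 was above its level in every pyramidal library (at most 7.21 CPM). In *dataset 1* it was 27.0 CPM in 459 nuclei led by Gm42418 and 153 CPM in 78 nuclei led by Rarb and Rgs9. Background droplets of *dataset 1* held 37.3 CPM of Gad1 in RunGH and 23.8 CPM in SedGH. The 27.0 CPM lies between these values, and the part of free RNA in it was not tested. In *dataset 2* Gad1 was 178 CPM in 107 nuclei led by Corin and Kcnc2, 292 CPM in 39 nuclei led by Nos1, 166 CPM in 103 nuclei led by Pde1c and Pbx3, and 628 CPM in 102 nuclei led by Pbx3, Cpa6 and Lgr5. The last cluster exceeded the highest NPY-like library (592 CPM) in Gad1 and held 210 CPM of Gad2. Nuclei led by Corin kept the PV name in *dataset 1* only, so the class is not made of the same clusters in both datasets.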

How the results depend on the processing

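The count of members called between the datasets (9) was 5 with DESeq2, 5 after thinning to 1000 UMIs (25 tests), and 3 to 9 when each library was left out, with the lowest value without RunGH of *dataset 2*. Shares over all genes under each alternative were not set beside the counts in this section, so no count is read as particular to the members. With the main processing these shares ran from 4.79% in OPC-like nuclei to 39.3% in all nuclei between the datasets. For the difference of the maternal effect by dataset they were 11.5% in pyramidal and 10.3% in all nuclei. Slc32a1 in pyramidal nuclei lost its call after thinning, with a log2 change of 0.34 (edgeR adjusted p = 0.61). Between datasets, calls were gained for Abat in PV-like nuclei with no filter on low counts, after subtraction and with the members kept in clustering (edgeR adjusted p = 0.042, 0.044 and 0.021), for Slc32a1 in VIP-like nuclei with group-housed libraries only (0.014) and for Slc6a11 in astrocyte-like nuclei after subtraction (log2 change -0.79, 0.028). For the difference of the maternal effect by dataset, 1 member was called with log-normalized clustering, Gad1 in pyramidal nuclei at -0.96 (edgeR adjusted p = 0.011), and Gad1 over all nuclei at -0.50 with no upper limit on genes (edgeR adjusted p = 0.044). Without the replicate block, 0 members were called for the maternal and the housing effect, as with it. After subtraction of the background profile the median levels of Gad1, Gad2 and Slc32a1 in pyramidal nuclei were 0, 0 and 0 CPM, those of Gad1 and Gad2 in NPY-like nuclei 623 and 807 CPM, and that of Abat in astrocyte-like nuclei 174 CPM. After thinning, Gad1 was at 7.58 CPM in pyramidal, 636 CPM in NPY-like and 103 CPM in OPC-like nuclei, and Abat at 120 CPM in astrocyte-like nuclei. The cause of these shifts was not tested. Of 555 levels under alternatives, 533 moved by less than the SD between libraries. Many of the 555 were medians with 1 library left out, whose shift is by arithmetic below that SD. The count is thus not read as a measure of robustness. Without TMM factors the median over all genes between datasets shifted by up to 0.16. At this depth 0 members passed the filter in oligodendrocyte-like nuclei.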

Other observations

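Abat was also found in small unnamed clusters led by Bcas1 and Tns3. It was at 141 CPM in 24 nuclei of *dataset 1* and 179 CPM in 61 nuclei of *dataset 2*. The 322 inhibitory nuclei led by Cadps2, Frem1 and Col25a1, left without a subtype name, held 149 to 301 CPM of Abat and 168 to 259 CPM of Gad1 over the 6 libraries.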
